A study of Mus musculus with 6 samples.

Results

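The kinesin family was followed in primary mouse neurospheres, floating colonies grown from neural progenitor cells, from embryos that were either wild type (WT) or conditional knockouts of Ash2l (KO). Its members were the rows of the deposited gene table that were annotated as protein-coding and whose name began with Kif and a digit or with Kifc, which gave 43 genes of 54532 in the table. Of these, 14 are motors of the mitotic spindle or of cytokinesis, 17 carry cargo along microtubules, 6 act in cilia or at centrioles and 6 have a mixed or another role. One of the last, Kif1bp, encodes a protein that binds kinesins and is not itself a motor.

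Each group had 3 RNA-seq libraries, WT 3, WT 6 and WT 7 and KO 1, KO 2 and KO 3 by the submitters' numbers, all from C57BL/6 embryos at E14.5. The KO embryos were made with D6-Cre, a transgene that expresses Cre recombinase in the dorsal forebrain, and ASH2L is a subunit shared by the COMPASS complexes, which methylate histone H3. The sources used here do not give which floxed or Cre alleles the WT embryos carried. The progenitors of both groups had been cultured for 6 days in medium with EGF and bFGF, each at 20 ng/ml, before RNA was taken. Whether the 3 libraries of a group stem from separate embryos is not stated, so a p-value here reflects the variation among these libraries, part of which may be technical.

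Total counts ran from 16764480 to 21983659 per library. Levels are in CPM (counts scaled to a common library total by the trimmed mean of M values, TMM), and values of single libraries always stand in the order WT 3, 6 and 7, then KO 1, 2 and 3. Ash2l itself measured 116, 113 and 109 CPM in WT and 86.3, 99.3 and 102 CPM in KO, and, though lower in every KO library, did not pass the threshold of 0.05 (-0.24, SE 0.10 as the log2 ratio of KO to WT, adjusted p = 0.119, edgeR quasi-likelihood test). A gene count does not show which exons were read, and so does not test the deletion itself. All 6 neural progenitor markers looked at (Nes, Sox2, Pax6, Vim, Fabp7 and Slc1a3) were detected in every library, with a summed level of 4435 to 6182 CPM in WT and 4268 to 6895 CPM in KO. They did not move as 1 group, since Nes rose 4.64-fold while Sox2 fell 2.22-fold and Pax6 fell 2.37-fold (adjusted p = 0.00242, 0.00809 and 9.99e-04, edgeR), and Vim, Fabp7 and Slc1a3 did not pass. WT 3 stood apart from the other WT libraries. Its 5 markers of cycling cells summed to 296 CPM against 167 and 151 CPM in WT 6 and WT 7, and its 10 neuron markers to 2541 CPM against 1598 and 1397 CPM. Values without WT 3 are therefore given for the kinesins, by group or by gene, where it changes their calls. For partner and marker genes only some such values are given. In these bulk samples, a change in the number of cells of a type and a change in RNA per cell cannot be told apart.

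Kinesins are motor proteins that hydrolyse ATP to move along microtubules or to shorten their ends. Dividing cells use one set of them to build the bipolar spindle, move and align chromosomes, and organise the midzone and midbody through which daughter cells separate, and the messages of these genes rise before mitosis. Neurons and other cells use another set to carry vesicles, mitochondria, endosomes and ciliary proteins away from the cell centre, with some heavy chains made mainly in neurons and others in nearly all cells.

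Because the mitotic members moved together, the DNA just before the start is shown for 6 of them that hold known cell cycle promoter elements and for Kif24, which also rose, beside Kif5c, a transport gene with no match. The sequences are from RefSeq on GRCm38.p6, the assembly that mm10 also names, and read 5′ to 3′ on the gene's strand. Capitals mark 3 kinds of element, searched on both strands in the 250 bases before the start, with no match of one kind overlapping a match of another in the sequences shown. They are the CCAAT box (CCAAT), the CHR or cell cycle genes homology region (TTTGAA or TTCGAA), and the E2F site (TTTGGCGC, TTTCCCGC, TTTGCCGC or TTTCGCGC). The sequences of Kif15, Kif22 and Kif24 are limited to 30 bases, from 35 to 6 bases before the RefSeq start, and the others cover the last 80 bases before it.
Kif11 (chr19:37376302-37376381, plus strand): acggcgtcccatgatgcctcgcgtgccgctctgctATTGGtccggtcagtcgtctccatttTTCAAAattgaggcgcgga
Kif15 (chr9:122951046-122951075, plus strand): ccgttgggGCGCCAAATTCAAAtctgcggc
Kif22 (chr7:127042426-127042455, minus strand): gaggcggggccccggtaaTTCAAAagagag
Kif24 (chr4:41464854-41464883, minus strand): gcgcgcgcgTTCGAActggcgcttgtggcg
Kif18b (chr11:102925125-102925204, minus strand): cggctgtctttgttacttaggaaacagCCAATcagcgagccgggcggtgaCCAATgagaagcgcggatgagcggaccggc
Kifc1 (chr17:33890634-33890713, minus strand): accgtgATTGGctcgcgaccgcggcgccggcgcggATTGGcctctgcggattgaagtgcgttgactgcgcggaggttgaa
Kifc5b (chr17:26917011-26917090, plus strand): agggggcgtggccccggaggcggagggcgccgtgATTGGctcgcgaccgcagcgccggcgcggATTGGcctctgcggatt
Kif5c (chr2:49619206-49619285, plus strand): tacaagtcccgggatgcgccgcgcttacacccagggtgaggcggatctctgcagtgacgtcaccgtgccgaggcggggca

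A CHR lay close to the start in Kif11 (19 to 14 bases before it), Kif15 (19 to 14), Kif22 (17 to 12) and Kif24 (26 to 21). In Kif15 it followed directly on an E2F match, and in Kif11 a reverse CCAAT box lay at 45 to 41 bases before the start. Kif18b had a pair of CCAAT boxes, and Kifc1 and Kifc5b each had a pair of reverse ones in nearly the same surroundings. RefSeq promoters were matched for 34 of the 43 members. Those with no entry were Kif20a, Kif5a, Kif5b, Kif13b, Kif21b, Kifc2, Kifc3, Kif19a and Kif28. A CCAAT box was found in 9 of 13 mitotic promoters (69.2%) and 3 of 11 transport promoters (27.3%), against 36.4% of the 11509 tested genes with a RefSeq promoter. For the CHR the counts were 5 of 13 (38.5%) and 0 of 11, against 11.8%, and for the E2F site 2 of 13 (15.4%) and 0 of 11, against 3.43%. The percentages of tested genes use each gene's most upstream RefSeq start, and those of members the start nearest to the deposited gene start. The elements were found outside the mitotic promoters as well. Of 5 promoters of cilium and centriole motors 3 held a CCAAT box and 2 a CHR, and of 5 promoters of members with another role 2 held a CCAAT box and 1 a CHR. Kif6 and Kif1bp, which fell, held a CCAAT box, and Kif27, which did not pass the test, held 3 CHR matches. The 13 mitotic promoters include that of Kif2b, a gene with no reads here, which holds a CCAAT box, and lack that of Kif20a. Among them, only that of Kif20b, which rose, held no match of any kind. The RefSeq start lay more than 100 bases from the start of the gene in the deposited table for Kif14, Kif2c, Kif4, Kif13a, Kif17 and Kif27, so their windows may miss the promoter in use here. The counts above include matches from such windows, a CCAAT box and a CHR each in Kif14 and Kif27, a CHR in Kif2c and a CCAAT box in Kif4. They also count the near copies Kifc1 and Kifc5b apart. A match of letters is not a bound site, and a window without one says nothing about the factor.

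**Figure D1:**
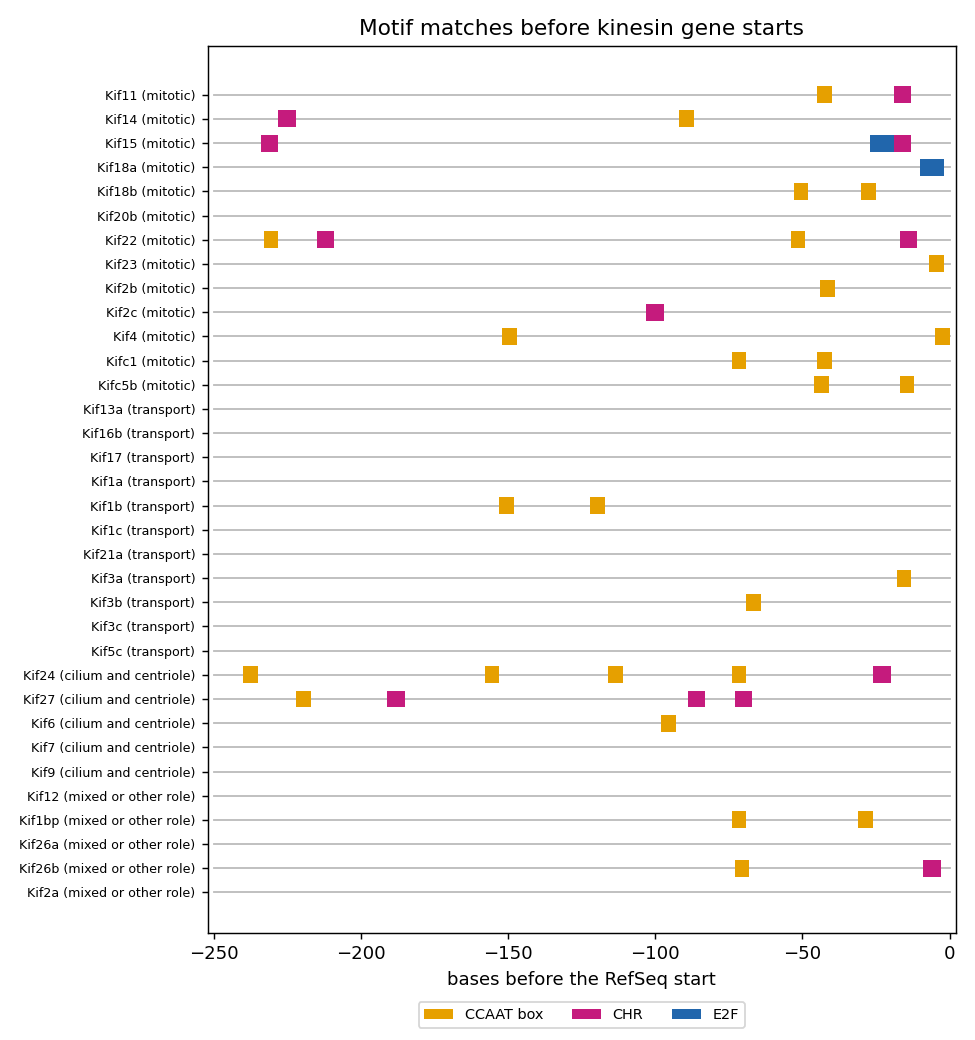
Matches of the CCAAT box, the CHR and the E2F site in the 250 bases before the RefSeq start of the 34 members with an entry, by role; the x axis is the distance from the start in bases. Matches to the CHR within 30 bases of the start are seen in Kif11, Kif15, Kif22, Kif24 and Kif26b, and 8 of the 11 transport promoters have no match of any kind.

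Across the family, the mitotic motors rose in KO, and the transport motors divided into a few that rose, a few that fell and a majority that did not pass the test. Of the 43 members, 40 had enough reads to be tested. The other 3 were Kif2b, a relative of the mitotic depolymerase Kif2c with 0 reads in all 6 libraries, and Kif12 and Kif28, with at most 1 and 5 reads in a library. A count of 0 allows up to 3 reads, or 0.136 to 0.179 CPM. Among the 40, 17 rose and 7 fell at an adjusted p of 0.05 (edgeR quasi-likelihood, Benjamini-Hochberg over all 16606 tested genes), where 13.5% of all tested genes rose and 15.5% fell. The median log2 fold change was 0.46 over these members and 0.00 over all tested genes. Without WT 3, 21 rose and 6 fell. That fit called more genes in all, 3500 higher and 3141 lower of 17365 tested, and every count without WT 3 is to be read beside these.

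**Figure D2:**
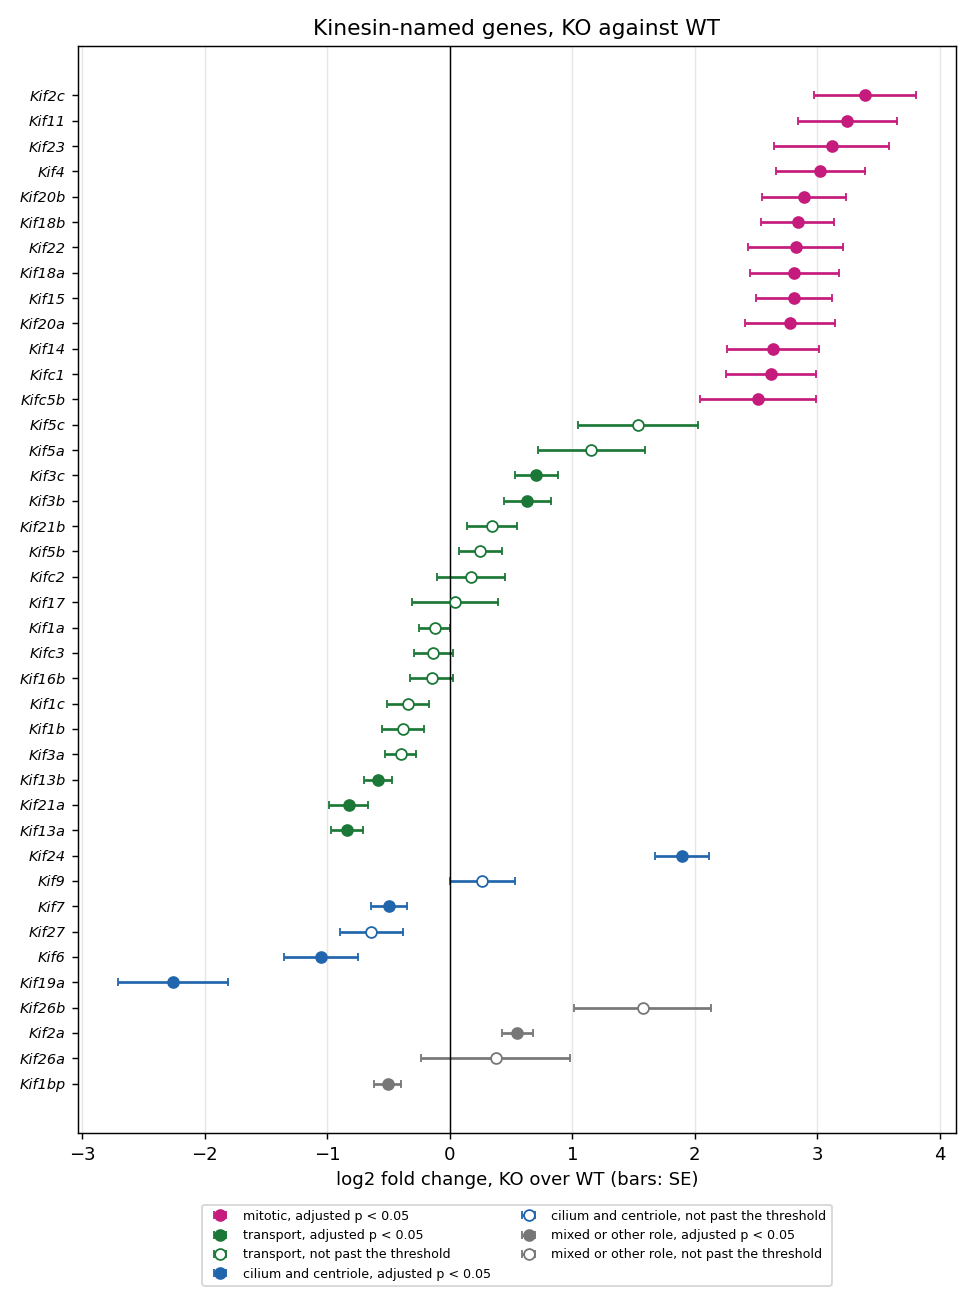
Log2 fold change of KO over WT with its SE for the 40 tested members, ordered by role and then by value, with filled points for an adjusted p below 0.05 and open points otherwise. The 13 mitotic members lie between 2.52 and 3.39, to the right of every other member.

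Every mitotic motor that could be tested rose, by 5.72-fold to 10.5-fold. All 13 passed, and in all 13 each KO library lay above each WT library, as it did in 23.5% of all tested genes. The median log2 fold change of the 13 was 2.82, or 7.07-fold. Without WT 3 each of the 13 rises was larger, with log2 fold changes of 3.18 to 3.9997 and a median of 3.31. Each of the 13 calls also held when any single library was left out and in a test against a 1.5-fold change.

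Kif11 and Kifc1, which build and focus the spindle, had the highest FPKM (fragments per kilobase of gene length and library total) of the mitotic motors in KO, at 39.4 ± 8.45 and 25.6 ± 2.87 FPKM (SD, n = 3). Kif11 (Eg5, chromosome 19 from 37376403 to 37421859 on mm10), which slides antiparallel microtubules apart to separate the spindle poles, measured 32.8, 14.2 and 12.2 CPM in WT and 173, 231 and 155 CPM in KO. Its lowest KO library was 4.72-fold above its highest WT library, and it rose 9.47-fold (3.24, SE 0.40, adjusted p = 0.00282, edgeR quasi-likelihood). Kif15, which can share the work of Kif11 in holding the spindle bipolar, went from 11.3, 5.87 and 5.87 to 51.7, 65.4 and 44.2 CPM (2.81, SE 0.31). Kifc1, a minus-end-directed motor that gathers microtubule ends at the poles, went from 22.8, 9.24 and 9.66 to 73.6, 93.4 and 89.5 CPM (2.62, SE 0.37). Its near copy Kifc5b went from 11.8, 3.21 and 4.21 to 32.9, 36.6 and 40.0 CPM (2.52, SE 0.48). WT 3 was the highest WT library for all 4 genes, and the groups stayed apart.

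Kifc1 and Kifc5b could not be separated fully by their reads. Of the 50-base stretches of the longest annotated Kifc5b transcript (GENCODE M21), 40.9% also occur in Kifc1 transcripts, and how the counting assigned reads that match both is not given in the sources used here. Kifc1 took 66.0, 74.2 and 69.6% of their joint counts in WT and 69.1, 71.9 and 69.1% in KO, with overlapping groups. Summed as 1 gene, an alternative chosen after seeing the data, they rose by a log2 fold change of 2.59. Among the other 12 mitotic members, the largest share of such stretches was 2.68%, in Kif11.

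Motors of chromosome movement and alignment rose to a like degree. Kif2c (MCAK), which removes tubulin from microtubule ends at centromeres and so frees wrong attachments, had the highest fold change of the family. It measured 10.5, 4.22 and 3.79 CPM in WT and 56.7, 78.2 and 57.6 CPM in KO, a 10.5-fold rise (3.39, SE 0.42, adjusted p = 0.00273, edgeR quasi-likelihood). Kif18a, which damps the swings of chromosomes at the metaphase plate, went from 8.19, 3.41 and 4.02 to 33.4, 44.7 and 31.5 CPM (2.81, SE 0.36). Kif18b, a relative that shortens astral microtubules, went from 11.1, 6.33 and 5.30 to 49.7, 62.9 and 49.8 CPM (2.84, SE 0.30). In these 3 genes KO 2 was the highest library.

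The chromokinesins ride on chromosome arms. Kif22 (Kid), which pushes the arms toward the spindle equator, measured 24.1, 10.7 and 8.85 CPM in WT and 87.5, 121 and 99.2 CPM in KO (2.82, SE 0.39). Kif4, which also sets the length of the midzone together with Prc1, went from 10.8, 6.03 and 4.07 to 56.7, 66.2 and 46.4 CPM (3.02, SE 0.36). The groups were apart in both, with the lowest KO library at least 3.63-fold above the highest WT library. The span of Kif4 overlaps Pdzd11 on the opposite strand, and that of Kif18a overlaps Mettl15. Whether counting used strand is not given in the sources used here, so reads of these pairs could be mixed.

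Motors of the midzone and midbody completed the set. Kif23 (MKLP1), which forms centralspindlin with Racgap1 and bundles the midzone, measured 15.0, 4.67 and 4.83 CPM in WT and 69.0, 78.9 and 63.8 CPM in KO (3.12, SE 0.47, adjusted p = 0.00469, edgeR quasi-likelihood), and 3.89 without WT 3. Kif20a (MKLP2), which brings Aurora B to the midzone, went from 14.53, 7.28 and 5.11 to 60.3, 63.3 and 60.7 CPM (2.78, SE 0.37). Its 3 KO libraries lay within 1.05-fold of each other, the tightest of the mitotic members, and its span overlaps Cdc23 on the opposite strand, which had more reads. Kif20b, needed in the mouse cortex for the midbodies of dividing progenitors, went from 8.64, 4.47 and 3.60 to 39.3, 48.0 and 36.3 CPM (2.89, SE 0.34). Kif14, which recruits citron kinase to the midbody, went from 8.13, 3.41 and 3.41 to 26.3, 35.3 and 31.4 CPM (2.64, SE 0.38) and had the lowest FPKM of the 13 in KO, at 3.05 ± 0.415 (SD, n = 3). Again no WT library reached a KO library.

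**Figure D3:**
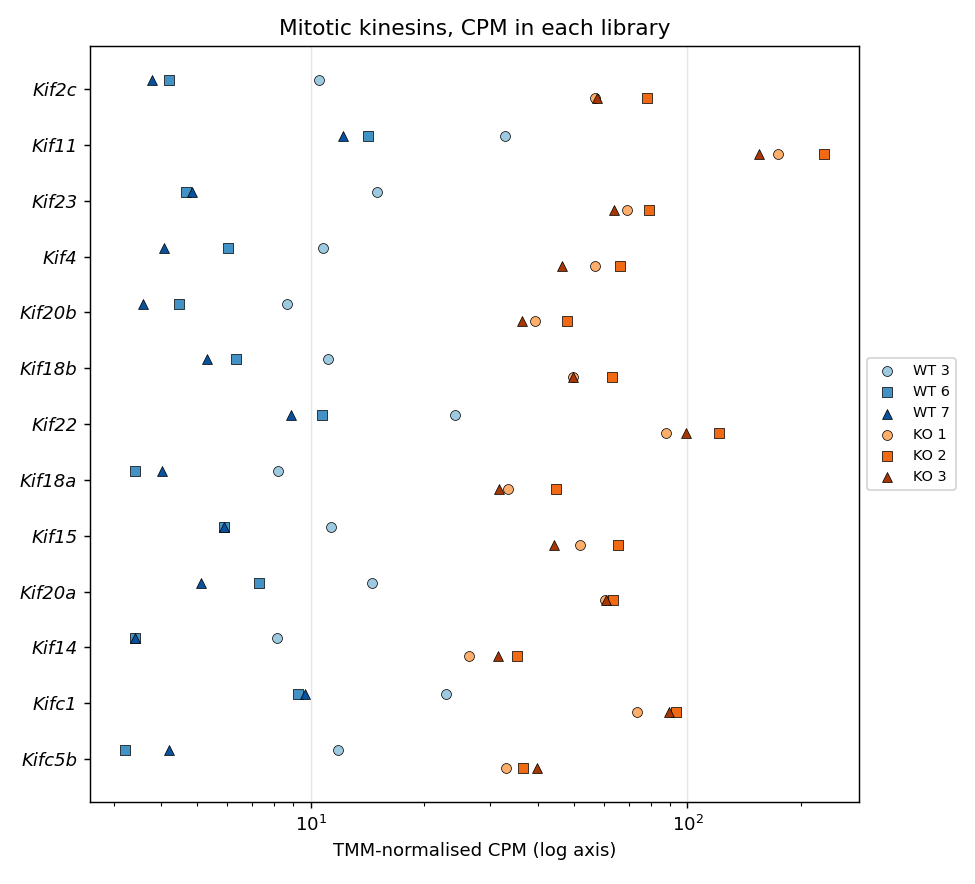
TMM-normalised CPM of the 13 tested mitotic kinesins in each of the 6 libraries, on a log axis, ordered by log2 fold change. In every gene the KO libraries lie to the right of the WT libraries, and WT 3 is the highest WT library.

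The mitotic members kept a similar order of libraries. WT 3 was the highest WT library in 13 of 13, by 1.91-fold to 3.17-fold over the mean of WT 6 and WT 7, and KO 2 was the highest KO library in 12 of 13, all but Kifc5b. The spread within KO was small, with the highest library 1.05-fold to 1.49-fold above the lowest. The markers of cycling cells moved with them. All 5 rose (Mki67, Top2a, Ccnb1, Cdk1 and Pcna), and they summed to 296, 167 and 151 CPM in WT and to 1412, 1813 and 1397 CPM in KO. The mitotic motors summed to 189.7, 82.998 and 75.0 CPM and 811, 1025 and 805 CPM. Divided by the cycling markers they stood at 0.640, 0.496 and 0.497 in WT and 0.574, 0.566 and 0.576 in KO. The groups overlapped in that ratio, which averaged 0.544 ± 0.0829 in WT and 0.572 ± 0.00563 in KO (SD, n = 3 each). The overlap came from WT 3, as WT 6 and WT 7 lay below every KO library. The ratio also depends on the markers chosen. Pcna held 87.0, 88.0 and 91.8 CPM of the WT sums and 300, 391 and 317 CPM of the KO sums. It rose less, by a log2 fold change of 1.92, than the others (3.29 to 3.47). Divided by the other markers without Pcna, the mitotic motors stood lower in every KO library than in any WT library. The direction of the ratio thus turned on Pcna. The part of cell number in these rises was not tested.

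Of 17 genes for partners of these motors at the spindle and midzone, 16 rose and 1 fell, where 13.5% and 15.5% of all tested genes did, with a median log2 fold change of 2.93. Without WT 3, 15 rose and 1 fell, with a median of 3.50. The largest rises were those of Aurkb (3.91, SE 0.52), the kinase that Kif20a carries, Hmmr (3.49, SE 0.49), a spindle pole protein, Plk1 (3.48, SE 0.37), a mitotic kinase, and Cdca8 (3.17, SE 0.43), which with Aurkb forms the chromosomal passenger complex. Without WT 3 these 4 stood at 4.78, 4.25, 3.998 and 3.82. Genes singled out after their values were seen were Cenpe, the centromere kinesin that the naming rule does not reach (2.90, SE 0.47), Racgap1 (2.38, SE 0.24), Prc1 (2.58, SE 0.36) and Tpx2 (3.05, SE 0.39), which binds Kif11 and Kif15. Numa1, a pole protein that dividing and resting cells both express, was the 1 that fell (-0.67, SE 0.14), and its call ended without WT 7 or KO 2. Ckap5, a microtubule polymerase, rose by 0.33 (SE 0.10), and its call ended without any 1 of the 6 libraries.

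The transport motors showed no common direction. Of 17 tested, 2 rose, 3 fell and 12 did not pass, with a median log2 fold change of -0.12, and 5 of 17 calls is near the 29% of all genes that were called. The groups did not overlap in 7 of 17, against 48.6% of all tested genes. Without WT 3, 4 rose and 4 fell, where 3500 and 3141 of 17365 tested genes did.

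**Figure D4:**
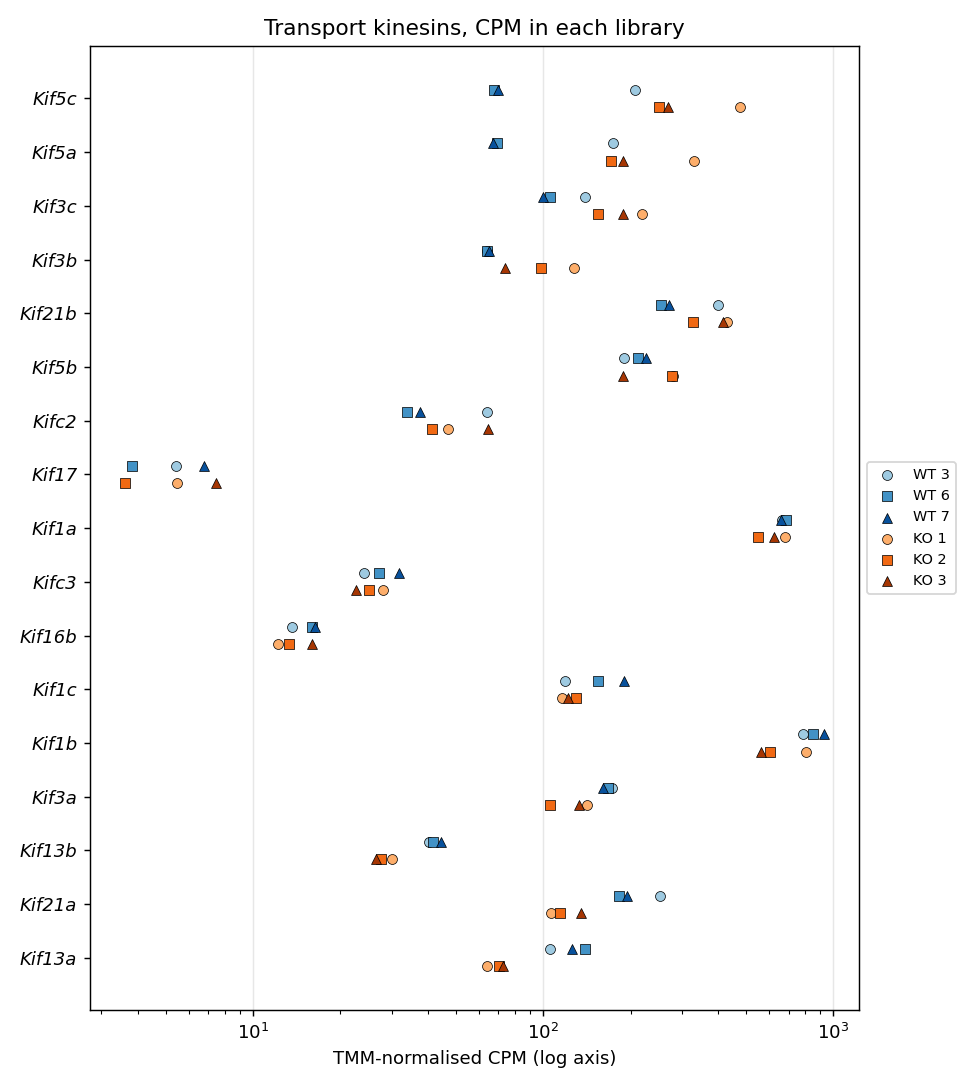
TMM-normalised CPM of the 17 transport kinesins in each library, on a log axis, ordered by log2 fold change. WT and KO libraries interleave in most genes; the KO libraries lie apart to the left in Kif13a, Kif21a, Kif13b and Kif3a and apart to the right in Kif3b, Kif3c and Kif5c.

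Those that fell belong to the vesicle and axon motors. Kif13a, which moves recycling endosomes and mannose-6-phosphate receptors, measured 105, 139 and 126 CPM in WT and 64.2, 70.3 and 72.7 CPM in KO. The KO values were all lower than the WT values, as in 25.2% of all tested genes, and the gene fell 1.79-fold (-0.84, SE 0.13, adjusted p = 0.00499, edgeR quasi-likelihood). Kif21a, a motor that slows microtubule growth at the cell edge, went from 252, 182 and 195 to 106, 115 and 135 CPM (-0.82, SE 0.16, adjusted p = 0.0110, edgeR), and its call ended without KO 2. Kif13b, which carries the phosphoinositide-binding protein centaurin-alpha, went from 40.3, 41.7 and 44.3 to 30.2, 27.5 and 26.5 CPM (-0.58, SE 0.11, adjusted p = 0.0115, edgeR), and its call ended without WT 6 or WT 7. Of the 3, Kif13a alone kept its call whichever library was left out. Glial markers were lower in the same libraries. Of 7 oligodendrocyte markers 6 fell, with sums of 1803 to 2785 CPM in WT and 77.4 to 223 CPM in KO. The other, Mog, did not pass (0.93, SE 0.75) but was called higher without WT 3 and with limma-voom. Of 6 astrocyte markers 4 fell, with sums of 1961 to 6158 CPM in WT and 908 to 1694 CPM in KO. Slc1a3, also among the progenitor markers, did not pass and made up most of the KO sums. It measured 877, 1357 and 1954 CPM in WT and 823, 1342 and 768 CPM in KO. No marker of either list was at 0 in all libraries, and the part of glia in the falls of these motors was not tested.

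Those that rose were the partner subunits of kinesin-2, a motor of cilia and of axons that is built from Kif3a with either Kif3b or Kif3c. Kif3b measured 63.9, 64.1 and 64.8 CPM in WT and 127, 97.8 and 73.8 CPM in KO (0.63, SE 0.19, adjusted p = 0.0461, edgeR quasi-likelihood). WT libraries lay within 1.01-fold of each other, and KO 1 and KO 3 differed by 1.73-fold. Kif3c, the form found mainly in neurons, went from 139, 105 and 99.9 to 218, 154 and 189 CPM (0.71, SE 0.18, adjusted p = 0.0261, edgeR), again with the groups apart. When 1 library was left out, Kif3b kept its call only without KO 3, and Kif3c only without WT 3 or KO 2. Kif3a, the shared subunit, measured 172, 167 and 161 CPM in WT and 141, 106 and 132 CPM in KO, with all KO libraries lower, and did not pass (-0.40, SE 0.13, adjusted p = 0.0541, edgeR). Kifap3, which links the complex to cargo, stood at 0.49, SE 0.16 and did not pass either (adjusted p = 0.0572, edgeR), though it did without WT 3 or KO 3.

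The balance of the kinesin-2 subunits did not overlap between the groups. On the per-length scale of FPKM, Kif3a stood to the sum of Kif3b and Kif3c at 1.599, 1.82 and 1.80 in WT and at 0.756, 0.771 and 0.956 in KO. Kif3a was the larger part in every WT library and the smaller in every KO library. The ratio averaged 1.74 ± 0.122 in WT and 0.828 ± 0.111 in KO (SD, n = 3 each). It was picked once the values had been looked at and is given as a description, with no test. The sum of all 3 subunits overlapped between the groups, at 71.9 ± 6.48 FPKM in WT and 79.8 ± 13.3 FPKM in KO.

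Kinesin-1, the main motor of fast axonal transport, has a heavy chain made in nearly all cells, Kif5b, and a pair made mainly in neurons, Kif5a and Kif5c. None of the 3 passed. Kif5c measured 206, 67.7 and 69.6 CPM in WT and 475, 251 and 269 CPM in KO, and its log2 fold change of 1.53 (SE 0.49) missed the threshold (adjusted p = 0.0542, edgeR quasi-likelihood). Kif5a measured 174, 69.2 and 67.0 CPM and 332, 171 and 188 CPM (1.15, SE 0.44, adjusted p = 0.0854, edgeR). In both genes WT 3 lay near the lower KO libraries and far above WT 6 and WT 7, and KO 1 was the highest. Without WT 3 both passed, at 2.27 for Kif5c and 1.75 for Kif5a. Both also passed with DESeq2 and with limma-voom with quality weights. Kif5b measured 190.1, 212 and 225 CPM and 279, 279 and 188 CPM, with overlapping groups (0.25, SE 0.17, adjusted p = 0.301, edgeR), and passed without KO 3 (0.43). By FPKM, Kif5b made up 32.3, 59.6 and 61.1% of the heavy chains in WT and 24.9, 38.7 and 28.2% in KO. WT 3 fell among the KO libraries in this share.

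Neuron markers were high in WT 3 as well. Of 10, only Gap43 passed as higher in KO, and the 10 summed to 2541, 1598 and 1397 CPM in WT and to 3721, 2512 and 2872 CPM in KO, so that WT 3 exceeded KO 2. Without WT 3, 8 of the 10 rose (edgeR). Gap43 lost its call without any 1 of the other 5 libraries, and the other 7 passed only without WT 3. With all libraries, DESeq2 called 4 higher and limma-voom 8. Kif5a and Kif5c together, divided by these markers, gave 0.150, 0.0857 and 0.0978 in WT and 0.217, 0.168 and 0.159 in KO, with all KO libraries above all WT libraries. Map2, which did not pass, made up 1035, 1095 and 969 CPM of the marker sums in WT and 1025, 771 and 783 CPM in KO. It was the largest marker in every library, and the separation of the groups in this ratio rested on it. Divided by the other markers without Map2, Kif5a and Kif5c overlapped between the groups, with KO 2 and KO 3 below every WT library. All 10 markers had reads. The part of neurons in the levels of the transport motors was not tested.

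The most abundant transport motors did not pass the test. Kif1a, a neuronal carrier of synaptic vesicle precursors, had the highest FPKM of the family in both groups and measured 667, 688 and 661 CPM in WT and 681, 549.7 and 622 CPM in KO (-0.12, SE 0.13, adjusted p = 0.487, edgeR quasi-likelihood). Kif1b, which has forms for mitochondria and for synaptic vesicle precursors, measured 786, 853 and 931 CPM in WT and 802, 606 and 563 CPM in KO (-0.38, SE 0.17, adjusted p = 0.130, edgeR). The groups overlapped in both. Of the remaining transport motors, Kif1c, Kif16b, Kif17, Kif21b, Kifc2 and Kifc3 had log2 fold changes between -0.34 and 0.34 and did not pass. Of these, Kif1c and Kif21b passed without WT 3. The spans of Kifc2 and Kif17 overlap Cyhr1 and Sh2d5, each with more reads than the kinesin, and their values are uncertain.

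Kinesins reach their cargo through adaptors, and cytoplasmic dynein moves cargo the opposite way. Of 17 cargo adaptors and kinesin partners, 5 fell and 0 rose (edgeR), where 15.5% and 13.5% of all tested genes did. Their median log2 fold change was -0.06. Counted in either direction, 5 of 17 calls is near the 29% of all tested genes. Without WT 3, 5 fell and 1 rose. At an unadjusted p below 0.05 the counts were 6 lower and 1 higher, with DESeq2 5 fell and 1 rose, and with limma-voom 6 fell and 2 rose. The 4 largest changes were those of Arl8a (-0.85, SE 0.16), a GTPase that ties lysosomes to kinesin-1, the light chain Klc4 (-0.82, SE 0.16), Plekhm2 (-0.76, SE 0.11), the link between Arl8 and kinesin-1, and Fez1 (-0.65, SE 0.11), an adaptor of kinesin-1. The light chains Klc1, Klc2 and Klc3 did not pass. Of 22 genes of dynein, dynactin and their adaptors, 1 rose and 4 fell, where 13.5% and 15.5% of all tested genes did, with a median of -0.01. Without WT 3, 3 rose and 4 fell, with limma-voom 3 rose and 5 fell, and without WT 6 or WT 7 1 rose and 1 fell. The 1 that rose was Nde1 (0.92, SE 0.11), a dynein regulator that cortical progenitors need for division, and the largest falls were those of Hook3 (-0.67, SE 0.13), Dctn4 (-0.45, SE 0.09) and Dctn6 (-0.40, SE 0.12). The call of Dctn4 ended without WT 6 or WT 7, and that of Dctn6 without any library but WT 3. Dync1i1, a dynein intermediate chain made mainly in neurons and named after its values were seen, had the largest log2 fold change of the list but did not pass, at 29.2, 2.66 and 2.84 CPM in WT and 88.1, 57.8 and 48.1 CPM in KO (2.49, SE 0.92, adjusted p = 0.0808, edgeR). WT 3 lay far above the other WT libraries, and without it the gene passed at 4.55.

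Of the 6 motors of cilia and centrioles, 3 fell and 1 rose, where 15.5% and 13.5% of all genes did, and the groups were apart in 6 of 6, against 48.6%. Leaving out any 1 library other than KO 3 left 2 calls, those of Kif19a and Kif24. Kif19a, which in mice shortens the microtubules of motile cilia, measured 19.0, 16.9 and 17.2 CPM in WT and 2.65, 1.89 and 6.48 CPM in KO. It fell 4.78-fold (-2.26, SE 0.45, adjusted p = 0.0119, edgeR quasi-likelihood), with KO 3 the highest KO library and -2.95 without it. Kif7, the ciliary regulator of Gli factors in Hedgehog signalling, went from 41.6, 39.2 and 36.1 to 24.2, 26.6 and 31.9 CPM (-0.50, SE 0.14, adjusted p = 0.0408, edgeR), with the groups apart, and its span overlaps Ticrr on the opposite strand. Kif6, a motile cilium motor, stood at 2.75, 2.71 and 2.84 CPM in WT and 0.922, 1.46 and 1.61 CPM in KO (-1.05, SE 0.30, adjusted p = 0.0399, edgeR). The call of Kif6 ended without any 1 of the 6 libraries, and that of Kif7 without any but KO 3. Kif27 (-0.64, SE 0.25) and Kif9 (0.27, SE 0.26), both linked to motile cilia, did not pass, although neither overlapped between the groups.

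Kif24, which in human cells removes tubulin at the mother centriole and holds back ciliation, was the 1 that rose. It measured 3.48, 3.82 and 2.70 CPM in WT and 11.6, 12.5 and 13.1 CPM in KO (1.89, SE 0.22, adjusted p = 0.00246, edgeR quasi-likelihood), a 3.72-fold rise that held without any single library. WT 6 was its highest WT library, where WT 3 was the highest for all 13 mitotic motors. Among 6 markers of multiciliated ependymal cells, 3 were tested and 0 passed with edgeR. Foxj1 was lower at an unadjusted p below 0.05 (1 of the 3), and it was called lower with DESeq2, with limma-voom and without WT 3. The 6 summed to 16.8 to 27.0 CPM in WT and 11.8 to 16.2 CPM in KO. Foxj1, the regulator of motile cilia, made up most of that, at 14.47, 22.0 and 24.1 CPM in WT and 11.99, 8.75 and 13.95 CPM in KO, and Ccdc153, Tmem212 and Dnah11 were at or near 0. The part of such cells in the fall of Kif19a was not tested.

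Of the members with a mixed or another role, Kif2a, which trims microtubules both at spindle poles and in growing axons, rose from 75.4, 62.5 and 61.9 to 107, 98.5 and 87.5 CPM (0.55, SE 0.13, adjusted p = 0.0193, edgeR quasi-likelihood), far less than its relative Kif2c. Kif1bp, which binds and holds back several kinesins, fell from 79.5, 89.3 and 93.2 to 65.5, 61.7 and 57.2 CPM (-0.51, SE 0.11, adjusted p = 0.0149, edgeR). The groups were apart in both genes. When 1 library was left out, Kif2a kept its call only without WT 3 or KO 3, and Kif1bp lost it without WT 6, WT 7 or KO 2. The span of Kif2a overlaps Dimt1 on the opposite strand. Kif26b, a kinesin-like protein of kidney and limb development without known motor activity, measured 19.0, 5.22 and 4.92 CPM in WT and 40.3, 22.6 and 23.7 CPM in KO (1.57, SE 0.56, adjusted p = 0.0742, edgeR), and passed without WT 3 (2.50). Its relative Kif26a measured 74.9, 15.6 and 20.4 CPM and 66.7, 28.9 and 48.1 CPM (0.38, SE 0.61), with the highest level in WT 3, and passed without it (1.41). KO 1 was the highest KO library in 4 of 4 tested members of other roles. The sum of 6 markers of mural and meningeal cells was also highest in KO 1, at 20.6, 9.79 and 7.81 CPM in WT and 98.5, 11.9 and 19.6 CPM in KO. Of the 6, 2 were called higher in KO (Acta2 and Lum). Acta2 rested on 2 reads in each WT library and on 23, 13 and 24 reads in KO. Lum had 395 reads in KO 1 and 27 and 31 in KO 2 and KO 3. Its call ended without any 1 of the WT libraries, and it did not pass with limma-voom. None of the 6 was at 0 in all libraries, and the part of such cells in the levels of Kif26a and Kif26b was not tested.

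In the make-up of the kinesin messages, the shares of the mitotic, the transport and the cilium and centriole motors did not overlap between the groups. The share of the other members did. FPKM divides by the gene length of the deposited table, which for some genes exceeds the transcript. Kif22 has a length of 4903 bases but 2066 different 50-base stretches in its longest annotated transcript, and Kif11 4819 and 4770. Ranks between genes and shares by FPKM therefore depend on that length. By FPKM, the 14 mitotic members held 8.30, 4.38 and 3.88% of the summed level of all 42 motors in WT and 25.04, 35.5 and 29.4% in KO. The mean share was 5.52 ± 2.42% in WT and 29.999 ± 5.27% in KO (SD, n = 3 each). Transport motors held 87.2 ± 3.28% in WT and 64.4 ± 4.96% in KO, although their own sum overlapped between the groups, at 363 ± 39.0 and 401 ± 64.8 FPKM. The mitotic sum went from 24.0 ± 14.3 to 185 ± 24.1 FPKM, with no overlap. Cilium and centriole motors held 3.53 ± 0.232% in WT and 1.62 ± 0.356% in KO.

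In the order of FPKM levels in WT, Kif1a (70.4 ± 2.26), Kif1b (47.5 ± 2.90), Kif3a (45.5 ± 2.91) and Kif21a (31.8 ± 6.79) had the highest means, and neither Kif1b and Kif3a nor Kif21a and the next, Kif5b (27.6 ± 1.58), differed beyond their spread. Kif5b lay above Kif21a in WT 6 and WT 7. The first mitotic motor, Kif11, was number 19 at 4.05 ± 2.47 FPKM, next to Kifc1. In KO, Kif1a was again highest at 67.5 ± 7.83 FPKM, followed by Kif5c (47.5 ± 18.4), Kif11 (39.4 ± 8.45) and Kif1b (38.1 ± 7.95). The levels of Kif5c, Kif11 and Kif1b in KO lay within each other's spread.

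**Figure D5:**
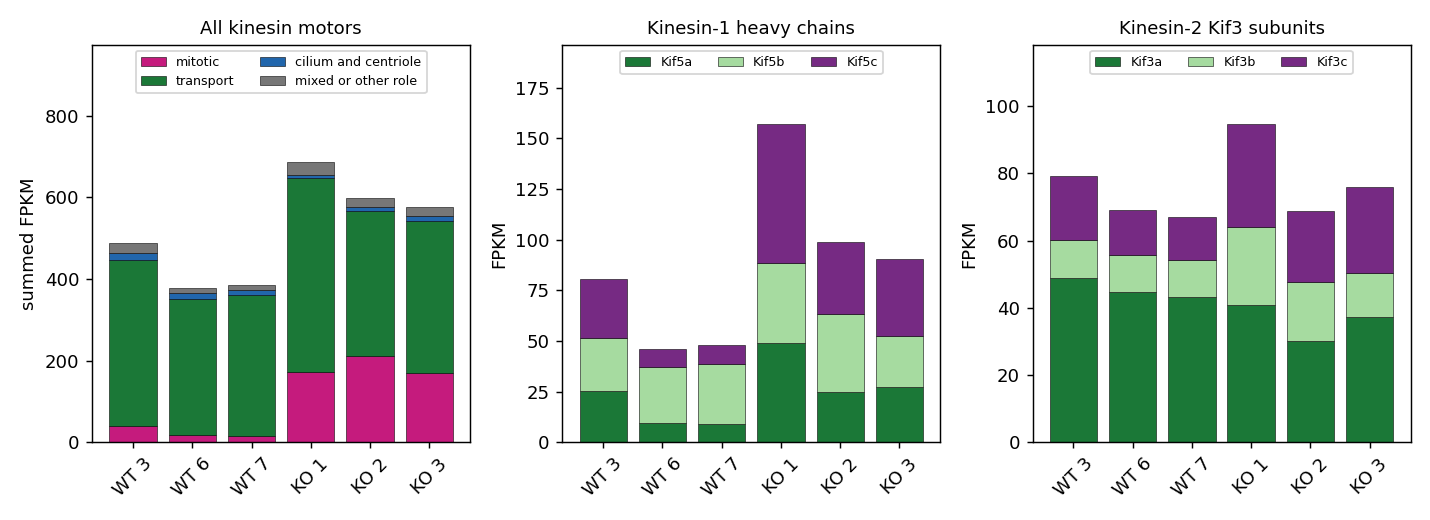
FPKM in each library, stacked by role for all 42 kinesin motors, by gene for the kinesin-1 heavy chains and by gene for the kinesin-2 Kif3 subunits. The mitotic part is 3.88% to 8.30% of the sum in WT and 25.04% to 35.5% in KO, and Kif3a shrinks relative to Kif3b and Kif3c in every KO library.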

How the data were processed

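The authors deposited whole-number read counts per gene and FPKM values for 6 libraries in one table. Per the submitters' processing notes, reads were handled on mm10 with HISAT2 2.0.5, with featureCounts 1.5.0-p3 and with DESeq2 in its version 1.16.1. The sources used here give neither their settings nor the annotation. The count recomputed from FPKM, length and total lay within 0.05 reads of the deposited one in all 258 member values.

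All 6 libraries entered 1 model of KO against WT in edgeR 4.0.16 (R 4.3.3), with filterByExpr defaults, TMM scaling (factors 0.961 to 1.04), the two-sided quasi-likelihood F test and Benjamini-Hochberg adjustment over 16606 genes at 0.05. Bracketed values after a gene are the KO to WT log2 ratio and its SE, which is the absolute change divided by the square root of F. The biological coefficient of variation was 26.5%. Every pair of libraries differed beyond sampling noise (lowest chi-square divided by its degrees of freedom 16.1). The floor given for a count of 0 covers counting error only, whereas the SE includes variation among libraries. FPKM was used for levels between genes and, as log2(FPKM + 1) and log2(FPKM + 0.1) with a mean of at least 0.5, in alternatives with limma 3.58.1. Other alternatives were DESeq2 1.42.0, limma-voom with quality weights, the 1.5-fold test (glmTreat), RLE size factors, library totals, a minimum of 1 CPM in 3 libraries, no expression filter and leaving out each library. On simulated counts the fits were checked for direction and size of known changes.

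The members, roles and gene lists were chosen with earlier results of these data known. Values in every library were given for members past the threshold and for the 4 other transport members with the highest mean FPKM, and of each partner list the 4 largest changes past the threshold were named. Kif5a, Kif5b, Kif26a, Kif26b, Kif27, Kif9, Kifap3, Cenpe, Racgap1, Prc1, Tpx2, Numa1, Ckap5, Gap43, Foxj1, Dync1i1 and Klc1 to Klc3 were named after their values were seen. Shared 50-base stretches were counted in GENCODE M21 transcripts, and overlapping genes with more than 10% of a member's mean count were taken from the table's coordinates, not all of which are reported here. The labels give both the dorsal cortex and the walls of the lateral ventricles as the source, and which was dissected cannot be told from them.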

Additional observations from a re-analysis of the deposited data

How the results depend on the processing

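All 13 mitotic calls held under every alternative run, and with Kifc1 and Kifc5b summed, an alternative chosen after seeing the data, 12 of 12 were called. Limma-voom called 8052 genes in all, 11 transport motors and 4 members of other roles. The test against a 1.5-fold change called 1522 genes in all, 2 cilium and centriole members, 16 partner genes, 0 transport motors (3 at an unadjusted p below 0.05) and 0 members of other roles (1 at an unadjusted p below 0.05), where the test against no change had called 4812, 4, 27, 5 and 2. Without an expression filter, and with limma on log2(FPKM + 1) and on log2(FPKM + 0.1), 2 cilium and centriole members were called. Leaving out 1 library at a time gave 2178 (without WT 6) to 6641 (without WT 3) genes in all, 2 to 8 transport motors, 2 to 3 cilium and centriole members, 0 to 4 members of other roles and 21 to 29 partner genes. For Kif17 the log2 fold change, 0.04 with all libraries, ran from -0.22 (without KO 3) to 0.28, with -0.15 without WT 6. For Kifc2, at 0.17 with all, it ran from -0.023 (without KO 3) to 0.50, with -0.0029 without WT 6. None of these passed the threshold. The cause of these shifts was not tested. Of 599 values of single members under the alternatives, 525 kept direction and side of the threshold, 24 gained a call, 46 lost it and 4 changed sign. Scaling by library totals moved the median log2 fold change of all genes to 0.06. No paired analysis was possible because the groups share only replicate number 3. Low counts limit Kif6, Kif9, Kif17, Kif24 and Kif27.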
